A study of Mus musculus with 12 samples.

Results

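The MYC, MAX and MXD network was described here through 10 genes, chosen by symbol: the activators Myc, Mycn and Mycl, the shared partner Max, the repressors Mxd1, Mxd3, Mxd4, Mxi1 and Mnt, and Mlx, a second partner protein related to Max. All 10 were found among the 26305 gene identifiers of the count table, and 8 passed the filter on low counts. RNA was measured in EMRK1184luc cells, a B cell lymphoma line that started from an Eµ-Myc transgenic female mouse and carries a lentiviral luciferase construct. The 12 libraries form 4 groups of 3: DMSO vehicle for 3 days, DMSO for 6 days, 5 µM WM-1119 for 3 days and 5 µM WM-1119 for 6 days. WM-1119 inhibits the histone acetyltransferases KAT6A and KAT6B, and the comparison asks how the RNA of the cells differs with the inhibitor at each time. Every group shares the Eµ-Myc transgene and the luciferase construct, and all libraries come from 1 line, so no group shows another lymphoma or a normal B cell. In Eµ-Myc animals the immunoglobulin heavy chain enhancer drives Myc in the B lineage, and gene counts do not separate transgene RNA from RNA of the native Myc gene.

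MYC family proteins bind DNA only as pairs with MAX, through their helix-loop-helix leucine zipper parts, at E-box sequences of which CACGTG is the preferred form. MXD proteins, MXI1 and MNT compete for MAX and for the same sites; they recruit SIN3 and histone deacetylases and repress the genes that MYC-MAX pairs activate. MLX pairs with MXD1, MXD4 and MNT, and also with the glucose-sensing factors MondoA and ChREBP. MYC drives growth and ribosome production in B lymphoma, whereas MXD genes are best known for rising as cells leave the cycle.

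Promoter windows of the members were read to see which hold the network's own binding letters. RefSeq windows on GRCm38.p6 ran from 250 bases before to 50 after a listed start, which can lie inside the span of the gene. They were found for 9 of the 10 genes, in 11 windows, and Myc had no window. The motif searched was CACGTG, which reads the same on both strands. It stood in the windows of 4 members (Mxd4, Mnt, Mlx and Max), against 7.15% of all 32851 windows and 8.09% of the 27025 genes with a window. Its first base lay 219 bases before the start of the window in Mxd4, 123 before it in Mnt, 40 before it in Mlx and 3 before it in Max. The window starts of Mnt, Mlx and Max lie inside the gene spans given below, and so do the motifs of Mlx and Max. A match is a description of the letters, not a binding site. The stretches around it are printed 5′ to 3′ on the strand of the gene, with the motif in capitals: Mxd4 from chr5:34187711-34187960 (minus strand), the 250 bases before its start, since Mxd4 was the one repressor with both a motif and a change at both times, and 30 bases each for Mnt from chr11:74830789-74830818 (plus strand), Mlx from chr11:101087238-101087267 (plus strand) and Max from chr12:76962234-76962263 (minus strand).
Mxd4: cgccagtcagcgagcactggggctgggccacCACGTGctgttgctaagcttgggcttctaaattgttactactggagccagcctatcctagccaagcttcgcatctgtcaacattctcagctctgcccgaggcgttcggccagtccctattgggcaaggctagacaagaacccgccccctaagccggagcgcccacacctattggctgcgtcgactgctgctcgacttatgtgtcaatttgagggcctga
Mnt: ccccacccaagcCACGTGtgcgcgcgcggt
Mlx: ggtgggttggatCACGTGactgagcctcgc
Max: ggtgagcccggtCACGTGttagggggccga

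For Mxd3, the 250 bases before the start of its window, chr13:55329732-55329981 (minus strand), are printed. The choice was made because Mxd3 had the largest fold change of the 8 tested members at both times. These bases reach into the gene, which spans 55325170 to 55329900. They hold no capitals, since the letters CACGTG do not occur in this window.
Mxd3: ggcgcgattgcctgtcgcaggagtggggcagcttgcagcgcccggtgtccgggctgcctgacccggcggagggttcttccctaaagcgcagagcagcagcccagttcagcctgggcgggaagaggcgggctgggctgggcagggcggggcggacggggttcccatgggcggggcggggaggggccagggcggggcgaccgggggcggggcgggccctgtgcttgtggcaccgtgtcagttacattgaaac

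Library totals ran from 14691369 to 41607926 counts, and levels below are CPM, each count divided by its library total after TMM scaling and brought to a common size. The B cell label held: 10 of 11 B cell markers were above 1 CPM in each group, with sums of 5458 to 5637 CPM in DMSO at 3 days and 6044 to 6262 CPM in WM-1119 at 6 days, while Ms4a1 (CD20) was at or near 0. Of the 10 tested B cell markers, 3 rose and 3 fell at 3 days and 5 rose and 2 fell at 6 days. At an edgeR adjusted p below 0.05, 60% and 70% of them passed, beside 24.4% and 30.8% of all tested genes. Of 6 T cell markers, 4 were at 0 in all libraries; of 8 myeloid markers, 2 were; the 3 matched erythroid markers summed to less than 1 CPM. Itgam and Csf1r carried nearly all of the myeloid sum of 105 to 128 CPM. Itgam, by far the more abundant, fell from 114 ± 4.38 to 103 ± 2.57 CPM at 3 days (SD, n = 3; log2 -0.14 ± 0.0454, edgeR adjusted p = 0.028) and was 0.10 ± 0.0451 at 6 days (adjusted p = 0.1003). Csf1r rose by 2.14 ± 0.211 (log2, SE) at 3 days and 2.25 ± 0.212 at 6 days (edgeR adjusted p = 1.1e-07 and 3.1e-08), to 4.14 ± 0.480 CPM (SD, n = 3) in WM-1119 at 6 days. Collagen and other fibroblast genes summed to 1.87 to 2.88 CPM in DMSO and 1.84 to 5.27 CPM in WM-1119 at 3 days, but to 1.42 to 16.9 CPM in DMSO and 0.817 to 38.3 CPM in WM-1119 at 6 days. Col1a1 was above 1 CPM in 5 libraries: DMSO at 6 days replicates 1 and 2, WM-1119 at 3 days replicate 2, and WM-1119 at 6 days replicates 1 and 2. For some members and lists, results at 6 days are therefore also given without them. The part of such RNA in the results was not tested.

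With WM-1119, Myc RNA fell and the RNA of 2 of the 5 repressors, Mxd3 and Mxd4, rose at both times. Of the other repressors, Mxd1 rose at 6 days, Mxi1 fell at 3 days and Mnt passed the test at neither time. The members were chosen with earlier results of these data known, so their number of calls is no independent evidence. In the edgeR quasi-likelihood test with Benjamini-Hochberg adjustment over 11997 genes (threshold 0.05), 4 of the 8 tested members changed at 3 days, Mxd3 and Mxd4 upward and Myc and Mxi1 downward. Of all tested genes, 24.4% changed in that comparison, with 11.8% rising and 12.6% falling. At 6 days 5 of 8 changed, with Mxd3, Mxd4 and Mxd1 higher and Myc and Max lower, against 30.8% of all tested genes, of which upward calls made 15.7% and downward calls 15.1% of those tested. The treated and vehicle libraries did not overlap for 4 members at 3 days and 6 at 6 days, where 39.9% and 41.3% of all tested genes did not overlap. The median log2 fold change of the 8 members was 0.04 at 3 days and 0.02 at 6 days, beside 0.002 and -0.004 for all tested genes, with members on both sides of 0. The design calls the 3 libraries of a group biological replicates without naming cultures or days, and each p reflects only how far these libraries spread. In bulk RNA, less RNA per cell and fewer cells of a type cannot be told apart. Without the 5 libraries with Col1a1 above 1 CPM, which leaves 1 library against 1 at 6 days with the spread taken from the other groups, 2 members (Myc and Mxd3) still passed at 6 days; of all genes tested in that fit 12.4% passed.

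**Figure D1:**
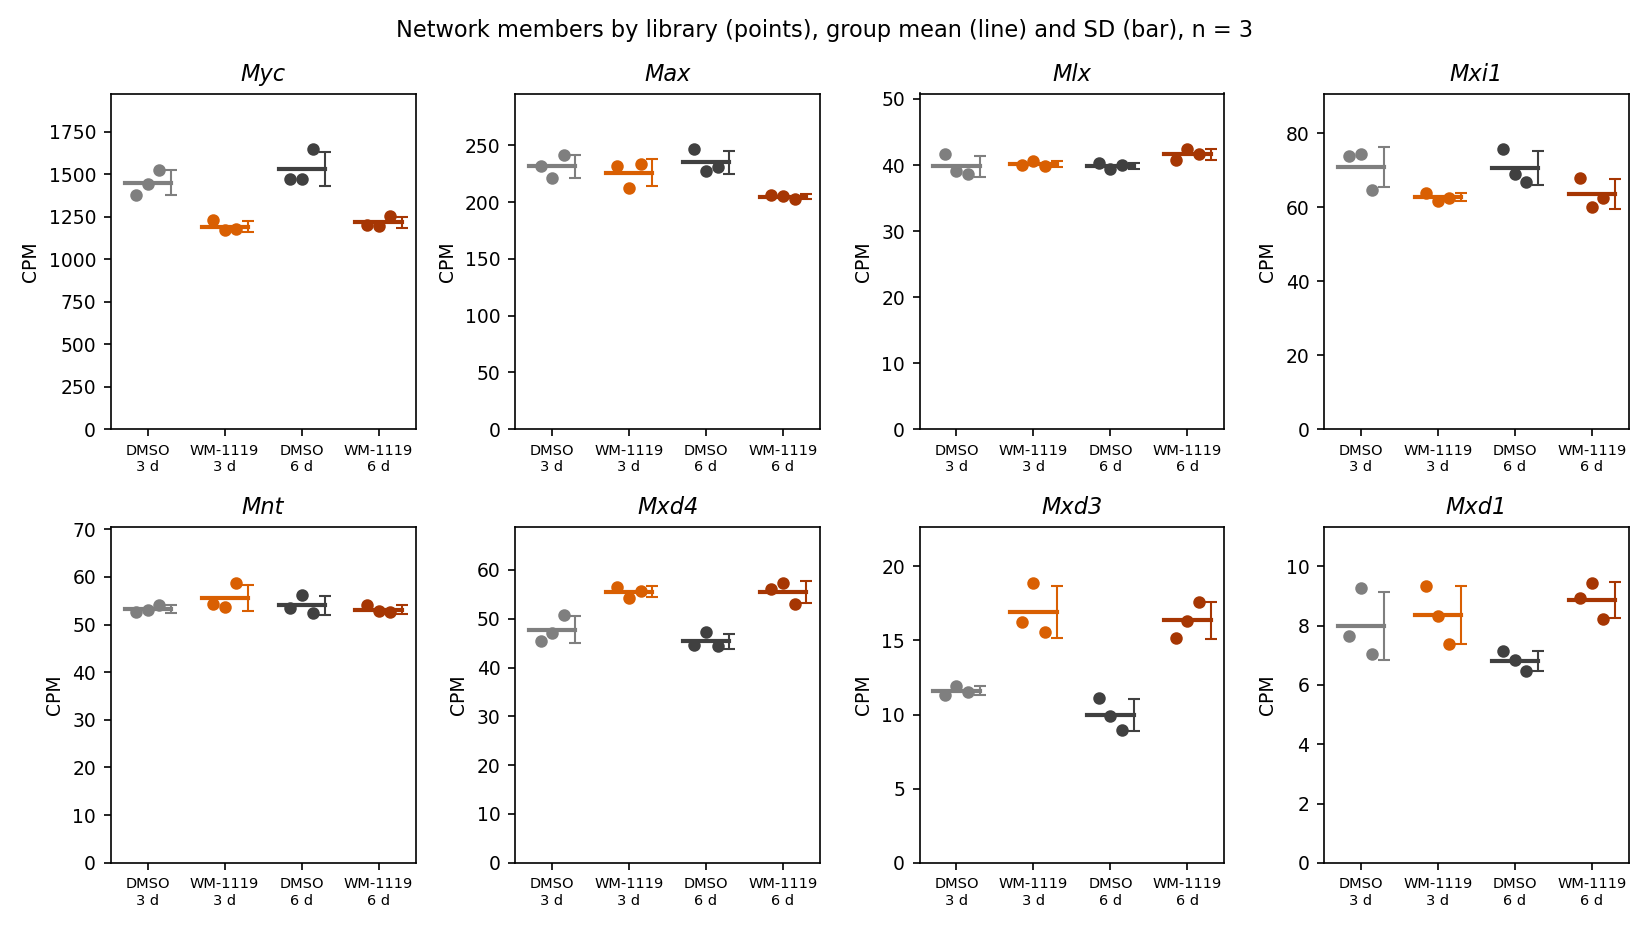
Level of 8 network members in CPM (y axis, from 0) for each of the 4 groups (x axis); points are libraries, lines are group means and bars are SD (n = 3). Myc lay between 1169 and 1255 CPM in the 6 treated libraries and between 1378 and 1645 CPM in the 6 vehicle libraries.

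Levels between genes can be compared only per length, in CPM per kilobase of the gene length given in the deposited table. On that scale Myc averaged 562 over the 12 libraries and ranked 79 among the tested genes. Max followed at 112, Mxd4 at 43.3 and Mlx at 20.4 CPM per kilobase. Mxi1 at 11.9, Mnt at 11.8 and Mxd3 at 10.6 had ranges that overlapped, and Mxd1 was lowest of the 8 at 1.72 CPM per kilobase. With these lengths Mxd3 was below Mxi1 and Mnt in vehicle, with 8.93 ± 0.233 (SD, n = 3) against 12.6 ± 0.960 and 11.6 ± 0.177 CPM per kilobase at 3 days. In WM-1119 at 3 days it stood at 13.0 ± 1.34, beside 11.2 ± 0.193 for Mxi1 and 12.1 ± 0.600 for Mnt. Several places rest on the length used. The table gives Mxd4 1179 bases, and the union of its GENCODE M21 exons has 8483, with which Mxd4 averaged 6.02 CPM per kilobase, below Mnt at 11.7 and Mxi1 at 9.81. The same exon unions put Max at 62.4 and Mxd3 at 5.79 CPM per kilobase. Mxd3 then stood below Mxi1 and Mnt in both treatments: 4.89 ± 0.128 against 10.4 ± 0.790 and 11.5 ± 0.175 in DMSO at 3 days, and 7.14 ± 0.734 against 9.18 ± 0.159 and 12.01 ± 0.595 in WM-1119 (SD, n = 3).

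**Figure D2:**
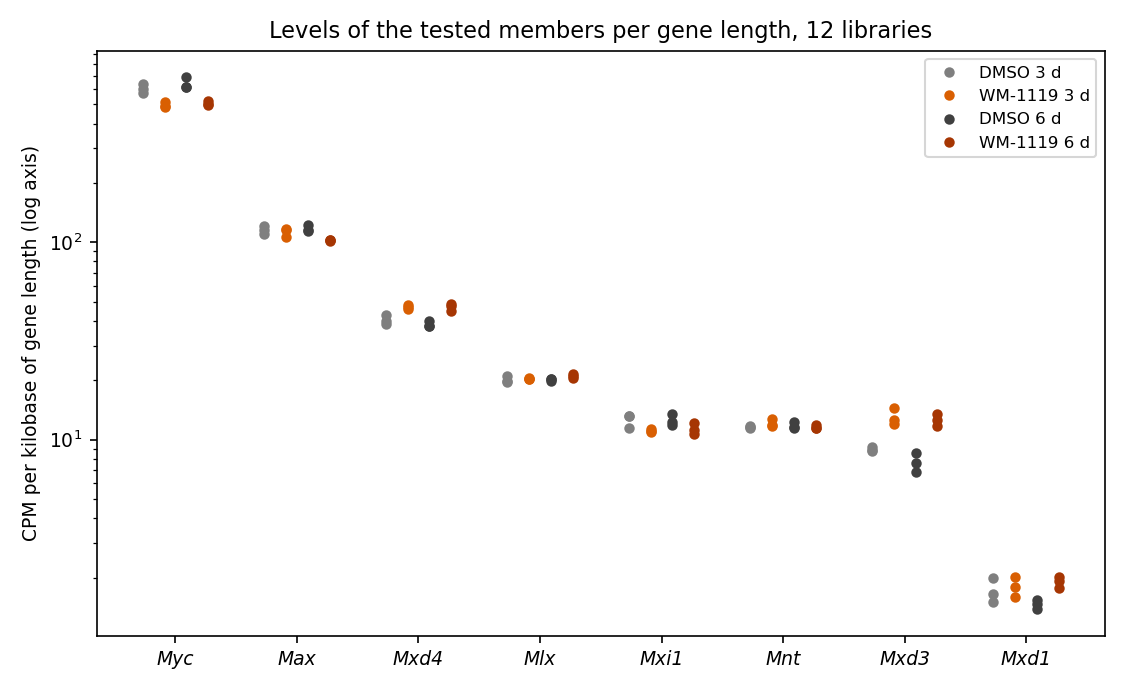
Level of 8 members in CPM per kilobase of the deposited gene length (y axis, log axis) by gene (x axis), with 1 point for each library coloured by group. Myc averaged 562, Max 112 and Mxd1 1.72 CPM per kilobase over the 12 libraries.

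Myc (Entrez 17869, chromosome 15 from 61985341 to 61990361 on GRCm38.p6), the activator that the transgene carries, was measured at 1378, 1443 and 1525 CPM in the 3 DMSO libraries at 3 days and at 1232, 1169 and 1175 CPM in the WM-1119 libraries. In the longer treatment it was at 1474, 1469 and 1645 CPM in DMSO and 1201, 1197 and 1255 CPM in WM-1119. Each treated library was below each vehicle library, so the groups did not overlap at either time. Myc fell by 17.7% at 3 days, a log2 fold change of -0.28 ± 0.0485 (SE; edgeR adjusted p = 0.00016), and by 20.4% at 6 days, -0.33 ± 0.0485 (adjusted p = 1.7e-05). It kept its direction and its call in all 23 alternative settings at each time, with log2 values from -0.32 to -0.24 and from -0.39 to -0.27.

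Mycn and Mycl, the other MYC family activators, were near 0 counts. Mycn (Entrez 18109, chromosome 12 from 12936093 to 12941836), best known in neural tissue, had 10 counts over all 12 libraries, in 7 of them, and at most 3 in any. Mycl (Entrez 16918, chromosome 4 from 122995588 to 123002490) had 3 counts, in 3 libraries. A floor of 3 counts over the 12 libraries corresponds to 0.0114 CPM; Mycn averaged 0.0354 CPM and Mycl 0.0118 CPM. Neither passed the filter, so no fold change is given for them.

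Max (Entrez 17187, chromosome 12 from 76937269 to 76962323), the obligate partner of MYC and of the repressors, was at 232, 221 and 242 CPM in DMSO and at 232, 212 and 234 CPM in WM-1119 at 3 days. These libraries overlapped, and the log2 difference was -0.04 with a 95% interval of -0.14 to 0.06 (edgeR adjusted p = 0.64). At 6 days Max was at 246, 228 and 231 CPM in DMSO and at 207, 205 and 203 CPM in WM-1119. All 3 treated libraries were below the vehicle libraries, and Max fell by 0.20 ± 0.0484 on the log2 scale, 1.15-fold (adjusted p = 0.0031). The drop at 6 days and the value at 3 days were not shown to differ: the difference of the effects was -0.16 ± 0.0684 (unadjusted p = 0.027, adjusted p = 0.49). Its 6 day value was -0.19 (adjusted p = 0.16) when the 5 libraries with Col1a1 above 1 CPM were left out.

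Mxd3 (Entrez 17121, chromosome 13 from 55325170 to 55329900), the MXD protein associated with cycling cells, showed the largest change of the members. It was at 11.3, 11.9 and 11.5 CPM in DMSO and at 16.3, 18.9 and 15.6 CPM in WM-1119 at 3 days. At 6 days it was at 11.1, 9.93 and 8.94 CPM in DMSO and at 15.2, 16.3 and 17.6 CPM in WM-1119. The lowest treated library was above the highest vehicle library at each time. Mxd3 rose 1.47-fold at 3 days, log2 0.55 ± 0.0999 (edgeR adjusted p = 0.00026), and 1.62-fold at 6 days, 0.70 ± 0.101 (adjusted p = 1.3e-05), and it passed in all 23 alternatives at each time. Its GENCODE M21 exons share 105 bases with Prelid1 on the opposite strand. The strand setting of the counting is not given, nor whether the shared bases were among those counted. The deposited length of Mxd3 is 1299 bases, against 2369 in the GENCODE exons. Prelid1, a mitochondrial lipid transfer protein at 269 CPM on average, fell by 0.24 ± 0.0492 on the log2 scale at 3 days (adjusted p = 0.00089) and by 0.19 ± 0.0492 at 6 days (adjusted p = 0.0059), the other way from Mxd3.

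Mxd4 (Entrez 17122, chromosome 5 from 34176580 to 34187710), an MXD protein of resting and differentiating cells, was at 45.5, 47.1 and 50.8 CPM in DMSO and 56.6, 54.3 and 55.6 CPM in WM-1119 at 3 days. At 6 days it was at 44.6, 47.2 and 44.5 CPM in DMSO and 56.1, 57.3 and 52.9 CPM in WM-1119. Treated and vehicle libraries were apart at each time. Mxd4 rose 1.16-fold at 3 days, log2 0.22 ± 0.0570 (edgeR adjusted p = 0.0075), and 1.22-fold at 6 days, 0.29 ± 0.0570 (adjusted p = 0.00044). The calls depended on single settings: without DMSO at 3 days replicate 1 the value at 3 days was 0.18 (adjusted p = 0.051), and without the 5 libraries with Col1a1 above 1 CPM the value at 6 days was 0.25 (adjusted p = 0.16). An antisense transcript, Gm42846, shares 514 exon bases with Mxd4 in GENCODE M21.

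Mxd1 (Entrez 17119, chromosome 6 from 86647044 to 86669234), an MXD repressor of differentiating blood cells, was the least abundant tested member. It was at 7.66, 9.27 and 7.04 CPM in DMSO and at 9.35, 8.34 and 7.40 CPM in WM-1119 at 3 days, where the libraries overlapped and the log2 difference was 0.06 (95% interval -0.19 to 0.31, edgeR adjusted p = 0.77). After 6 days Mxd1 was at 7.15, 6.83 and 6.46 CPM in DMSO and at 8.93, 9.44 and 8.23 CPM in WM-1119. The 6 day groups did not overlap, and Mxd1 rose 1.30-fold, log2 0.38 ± 0.122 (adjusted p = 0.022). The effects at the 2 times were not shown to differ (0.32 ± 0.172, adjusted p = 0.68). The call at 6 days was lost on leaving out 1 library: adjusted p = 0.052 without DMSO replicate 3, 0.063 without WM-1119 replicate 1 and 0.099 without WM-1119 replicate 2. Leaving out the 5 libraries with Col1a1 above 1 CPM gave a log2 value of 0.35 (adjusted p = 0.40).

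Mxi1 (Entrez 17859, chromosome 19 from 53310128 to 53373293), also called MXD2, moved the other way from Mxd3 and Mxd4. It was at 73.9, 74.3 and 64.8 CPM in DMSO and at 63.9, 61.7 and 62.4 CPM in WM-1119 at 3 days, and at 75.6, 69.1 and 66.8 CPM in DMSO and 67.9, 60.2 and 62.6 CPM in WM-1119 at 6 days. The groups were just apart at 3 days and overlapped at 6 days. Mxi1 fell by 0.18 ± 0.0632 on the log2 scale at 3 days (edgeR adjusted p = 0.039), and was -0.15 ± 0.0633 at 6 days (adjusted p = 0.073). With the replicate number as a block, the value at 6 days was -0.15 with an adjusted p of 0.038, past the threshold. At 6 days the deviations of libraries with the same number correlated weakly, at 0.191 to 0.209. Those with different numbers correlated at -0.175 to 0.003, but the labels name no pairs. The 3 day call was lost in 10 of 23 alternatives, among them DESeq2 (adjusted p = 0.053), limma voom (0.051) and the leaving out of any 1 of 5 libraries (0.056 to 0.15). Gm10197, on the opposite strand, shares 194 exon bases with Mxi1 in GENCODE M21.

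Mnt (Entrez 17428, chromosome 11 from 74830806 to 74845725), the broadly expressed MAX partner and repressor, was at 52.5, 53.0 and 54.1 CPM in DMSO and 54.3, 53.6 and 58.7 CPM in WM-1119 at 3 days. After 6 days Mnt was at 53.4, 56.2 and 52.4 CPM in DMSO and 54.1, 52.8 and 52.5 CPM in WM-1119. The libraries overlapped at both times. The log2 difference was 0.06 at 3 days (95% interval -0.05 to 0.17, edgeR adjusted p = 0.45) and -0.02 at 6 days (-0.13 to 0.09, adjusted p = 0.80).

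**Figure D3:**
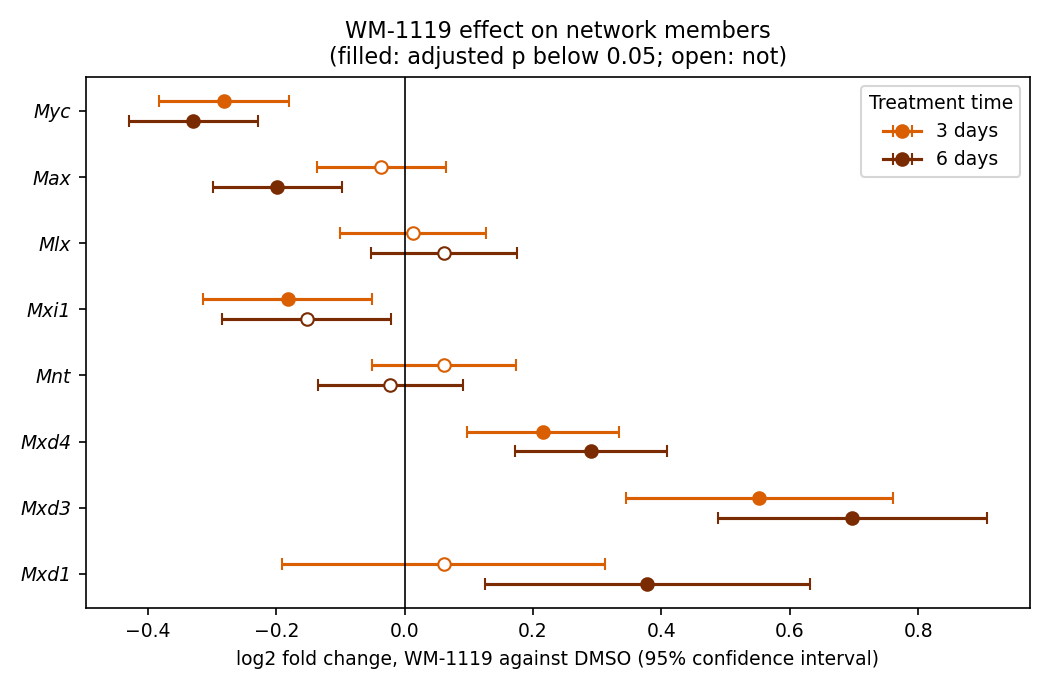
Log2 fold change of WM-1119 against DMSO (x axis) for 8 members (y axis) at 3 and 6 days, with 95% intervals from edgeR; filled points passed the adjusted p of 0.05 and open points did not. Mxd3 lay farthest to the right at 0.55 and 0.70, and Myc farthest to the left at -0.28 and -0.33.

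Mlx (Entrez 21428, chromosome 11 from 101086707 to 101092207), the partner of MondoA and ChREBP, was at 41.6, 39.1 and 38.6 CPM in DMSO and 40.0, 40.6 and 39.9 CPM in WM-1119 at 3 days. At 6 days it was at 40.2, 39.4 and 40.0 CPM in DMSO and 40.7, 42.4 and 41.7 CPM in WM-1119. The 6 day groups were narrowly apart, yet the test was not passed: the log2 difference was 0.01 at 3 days (95% interval -0.10 to 0.13, edgeR adjusted p = 0.90) and 0.06 at 6 days (-0.05 to 0.17, adjusted p = 0.43). In GENCODE M21, Mlx shares 385 exon bases with Psmc3ip on the opposite strand, which averaged 14.3 CPM and did not pass either test. Its partner gene Mlxip, which encodes MondoA, did not pass (log2 0.0003 and -0.02, adjusted p = 0.998 and 0.83), and Mlxipl, which encodes ChREBP, had at most 4 counts in a library. Txnip, a glucose-responsive target of MondoA that restrains glucose uptake, was at 160.1, 146 and 162 CPM in DMSO and 207, 189 and 177 CPM in WM-1119 at 3 days, and at 155, 139 and 142 against 189, 171 and 181 CPM at 6 days. Treated libraries were above vehicle libraries at each time, and Txnip rose by 0.29 ± 0.0598 and 0.31 ± 0.0599 on the log2 scale (adjusted p = 0.00097 and 0.00045). Arrdc4, a second MondoA target, had 0 counts in all 12 libraries.

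Mga, the giant MAX partner of the PRC1.6 repressor complex, ran from 130.1 to 174 CPM with log2 differences of -0.05 ± 0.0715 at 3 days and 0.03 ± 0.0713 at 6 days (edgeR adjusted p = 0.65 and 0.76). Zbtb17, which encodes MIZ1, through which MYC represses genes, gave 0.07 ± 0.0587 and 0.01 ± 0.0589 (adjusted p = 0.44 and 0.92).

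Between the times, no member passed the test in either treatment. In DMSO, 6 days against 3 days, 0 of 8 members passed in edgeR, DESeq2 or limma voom and 0 had an unadjusted edgeR p below 0.05, where 0.809% of all tested genes passed. The libraries of the 2 times were apart for 1 member, Mxd3, as they were for 16.7% of all tested genes. The largest differences were -0.23 ± 0.120 for Mxd1 (adjusted p = 0.44) and -0.20 ± 0.102 for Mxd3 (adjusted p = 0.42). In WM-1119, 6 days against 3 days, 0 of 8 passed in the 3 tools and 1, Max, had an unadjusted p below 0.05, where 5.62% of all tested genes passed. For 2 members, Max and Mlx, the libraries of the 2 times were apart, as for 29.6% of all tested genes. Max was -0.14 ± 0.0487 (adjusted p = 0.095), and passed under 3 alternatives: upper-quartile scaling (adjusted p = 0.043), no filter on low counts (0.046) and a fit of these 2 groups alone (0.042). For the difference of the WM-1119 effects between times, 0 of 8 passed in the 3 tools, 1 (Max) had an unadjusted p below 0.05, and 0.725% of all tested genes passed.

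Ratios within a library do not depend on the scaling between libraries. They restate the RNA values of the members given above, say nothing of protein, and are descriptions without a test. Myc RNA per kilobase over the summed RNA per kilobase of the 5 repressors was 7.81, 7.92 and 8.28 in DMSO and 5.99, 5.73 and 5.78 in WM-1119 at 3 days. At 6 days it was 8.42, 8.31 and 9.89 in DMSO and 5.88, 5.84 and 6.31 in WM-1119. All 6 treated libraries were below all 6 vehicle libraries. The mean ratio was 8.01 ± 0.244 (SD, n = 3) and 5.84 ± 0.139 at 3 days, and 8.87 ± 0.886 and 6.01 ± 0.260 at 6 days. With GENCODE exon lengths the means were 15.9 and 12.2 at 3 days and 17.3 and 12.6 at 6 days, so the size of the ratio depends on the lengths and its direction does not.

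The sum of the 5 repressors itself was 75.4 ± 1.68 CPM per kilobase in DMSO and 85.2 ± 0.527 in WM-1119 at 3 days, and 72.0 ± 2.36 and 84.4 ± 1.40 at 6 days (SD, n = 3). With GENCODE exon lengths the mean sums were 33.6 and 36.1 at 3 days and 32.5 and 35.5 at 6 days. Which repressor held most of the sum depended on the lengths. Mxd4 made 51.8% to 56.9% of it in any library with the deposited lengths, but 15.7% to 19.2% with the GENCODE lengths, where Mnt held 32.0% to 36.8%. With the deposited lengths the share of Mxd3 was 11.8% ± 0.272 in DMSO and 15.3% ± 1.57 in WM-1119 at 3 days, and 10.7% ± 0.927 and 14.9% ± 1.35 at 6 days. The share of Mxi1 went from 16.8% ± 1.54 to 13.1% ± 0.172 at 3 days and from 17.4% ± 0.905 to 13.4% ± 0.837 at 6 days. With GENCODE lengths the share of Mxd3 was 14.6% and 19.8% at 3 days and 12.9% and 19.5% at 6 days, and that of Mxi1 was 31.0% and 25.5% and then 31.8% and 26.2%, the same directions at other levels. Myc over Max was 5.23 ± 0.246 in DMSO and 4.42 ± 0.203 in WM-1119 at 3 days, where the libraries did not overlap, and 5.45 ± 0.481 and 4.97 ± 0.179 at 6 days, where they did and both genes fell. Max over the repressors was 1.53 ± 0.0680 and 1.32 ± 0.0694 at 3 days and 1.63 ± 0.0761 and 1.21 ± 0.0110 at 6 days. The GENCODE lengths gave means of 8.29 and 6.998, then 8.63 and 7.87, for Myc over Max, and of 1.92 and 1.74, then 2.01 and 1.604, for Max over the repressors.

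**Figure D4:**
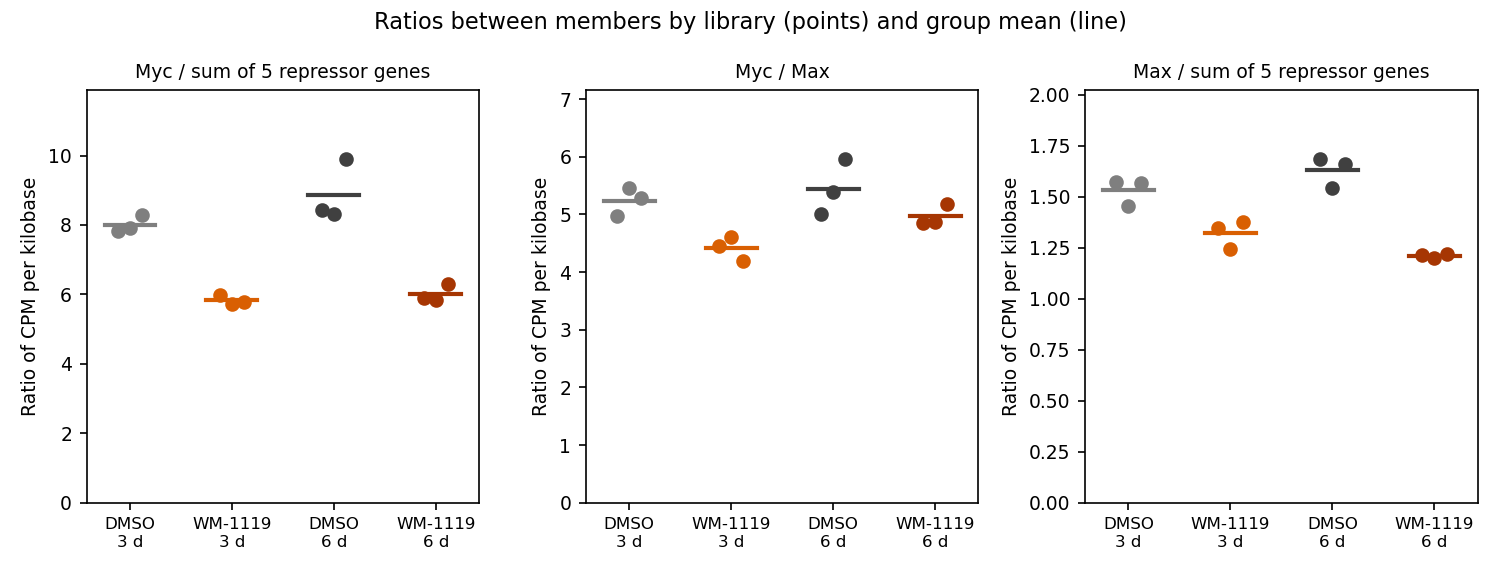
Ratios between members, from CPM per kilobase of the deposited gene length (y axis), in each library of the 4 groups (x axis). Myc over the sum of the 5 repressors lay between 5.73 and 6.31 in the treated libraries and between 7.81 and 9.89 in the vehicle libraries.

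Genes that MYC activates, a list of 32 genes of metabolism, ribosome production and growth, were mostly lower or did not pass. At 3 days 13 of 32 fell and 1 rose, and at 6 days 18 fell and 0 rose, with median log2 fold changes of -0.11 and -0.15 beside 0.002 and -0.004 for all tested genes. Falls made 12.6% and 15.1% of all tested genes. The list was written with results of these libraries known, so its direction is no independent evidence. Ldha, the lactate dehydrogenase of glycolysis, went from 1897 ± 94.6 to 1333 ± 50.3 CPM at 3 days (SD, n = 3) and from 2010 ± 35.4 to 1389 ± 46.8 CPM at 6 days, log2 -0.51 ± 0.0443 and -0.53 ± 0.0443 (edgeR adjusted p = 1.7e-08 and 4.5e-09). Odc1, the first enzyme of polyamine synthesis, fell by 0.37 ± 0.0426 and 0.33 ± 0.0426 on the log2 scale (adjusted p = 9.4e-07 and 2.4e-06). Apex1, a DNA repair endonuclease, fell by 0.37 and 0.28, and Npm1, the nucleolar ribosome assembly protein, by 0.21 and 0.29 on the log2 scale. The gene that rose at 3 days was Slc1a5, a glutamine transporter named after its value was seen, at 0.14 (adjusted p = 0.049), and it was -0.002 at 6 days (adjusted p = 0.98). In limma voom 0 of the 32 rose at 3 days, and at 6 days 0 rose in edgeR, DESeq2 or limma voom, with 0 rises at an unadjusted edgeR p below 0.05. Of the 32, 8 fell and 0 rose at 3 days when the 5 libraries with Col1a1 above 1 CPM were left out. In that fit 18.8% of all tested genes passed at 3 days. At 6 days, with 1 library against 1, the list median was -0.22.

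SIN3 and NCoR corepressors, the machinery that MXD proteins and MNT recruit, were measured in 18 genes. At 3 days 6 fell and 2 rose, and at 6 days 4 fell and 0 rose, with medians of -0.11 and -0.07. The genes called were 44.4% of the list at 3 days and 22.2% at 6 days, beside 24.4% and 30.8% of all tested genes. For rises at 6 days, limma voom called 1 and DESeq2 0, and 2 had an unadjusted edgeR p below 0.05. Sap30, a SIN3 subunit, went from 70.4 ± 7.33 to 45.7 ± 2.00 CPM at 3 days and from 71.4 ± 5.77 to 52.8 ± 5.51 CPM at 6 days (SD, n = 3), log2 -0.63 ± 0.0846 and -0.43 ± 0.0841 (edgeR adjusted p = 3.0e-05 and 0.00074). Ing2, a histone-reading SIN3 subunit, fell by 0.28 and 0.32 and Rbbp4, a histone chaperone, by 0.15 and 0.16 on the log2 scale. Brms1l, another SIN3 component, rose by 0.21 at 3 days (adjusted p = 0.010) and was 0.15 at 6 days (adjusted p = 0.0502). Hdac1, a histone deacetylase named after its value was seen as the other gene that rose, was 0.17 at 3 days (adjusted p = 0.018). Without the 5 libraries with Col1a1 above 1 CPM, 3 fell and 1 rose at 3 days, where 18.8% of all tested genes passed. At 6 days, with 1 library against 1, the list median was -0.08.

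MYC coactivators, 18 genes of acetyltransferase, remodelling and elongation complexes, had 0 calls at 3 days and at 6 days 2 lower and 1 higher, with medians of 0.004 and 0.01. The 3 calls are 16.7% of the list, below the 30.8% of all tested genes at 6 days. At 3 days DESeq2 and limma voom also called 0, and 1 gene had an unadjusted edgeR p below 0.05. Paf1, of the PAF1 elongation complex, fell by 0.21 and Supt5, the elongation factor SPT5, by 0.15 on the log2 scale at 6 days, and Kat2a, the acetyltransferase GCN5, rose by 0.12 (edgeR adjusted p = 0.0024, 0.017 and 0.047). DESeq2 called 0 rises and limma voom 1 at 6 days. None of the 18 passed at 3 days with the 5 libraries with Col1a1 above 1 CPM left out, a fit with fewer samples. In that fit 18.8% of all tested genes passed at 3 days. At 6 days, with 1 library against 1, the list median was 0.04.

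Genes for the turnover of MYC protein (18 ligases, deubiquitinases and kinases) had 4 lower and 0 higher at each time, with medians of -0.06 and -0.06. That is 22.2% of the list at each time, below the 24.4% and 30.8% of all tested genes. DESeq2 called 2 lower at 3 days and 3 at 6 days, limma voom 3 and 3, and 0 were higher in either tool or at an unadjusted edgeR p below 0.05. Fbxo28, an F-box protein of the ubiquitin ligase that modifies MYC, fell by 0.33 and 0.20 on the log2 scale, and Usp28, which removes ubiquitin from MYC, by 0.26 and 0.25 (edgeR adjusted p from 0.0015 to 0.035). Aurka, a mitotic kinase known to stabilise N-MYC, fell by 0.14 at 3 days, and Usp22, a deubiquitinase of the SAGA complex, by 0.16 at 6 days. The other genes that passed, named after their values were seen, were Fbxo32 at 3 days (-0.36, adjusted p = 0.044) and Set at 6 days (-0.13, adjusted p = 0.046). Without the 5 libraries with Col1a1 above 1 CPM, 2 fell at 3 days, where 18.8% of all tested genes passed. At 6 days, with 1 library against 1, the list median was -0.08.

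Subunits of the PRC1.6 complex that MGA joins to MAX numbered 9, where 2 rose and 1 fell at 3 days and 2 rose and 3 fell at 6 days, with medians of -0.07 and -0.06. The genes called were 33.3% and 55.6% of the list, beside 24.4% and 30.8% of all tested genes. At 6 days DESeq2 called 1 higher and 2 lower and limma voom 1 higher and 3 lower; at 3 days both called 2 higher and 1 lower. E2f6, its E2F family repressor, rose by 0.15 and 0.21 on the log2 scale (edgeR adjusted p = 0.031 and 0.0019), while Pcgf6, the subunit that defines the complex, fell by 0.18 and 0.14 (adjusted p = 0.017 and 0.047). At 6 days Rnf2, its ubiquitin ligase, fell by 0.22 and Yaf2 by 0.19 (adjusted p = 0.031 and 0.026). The other rises, named after their values were seen, were Rybp at 3 days (0.17, adjusted p = 0.039) and Ring1 at 6 days (0.31, adjusted p = 0.042). Without the 5 libraries with Col1a1 above 1 CPM, 1 rose and 0 fell at 3 days, where 18.8% of all tested genes passed. At 6 days, with 1 library against 1, the list median was -0.06.

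**Figure D5:**
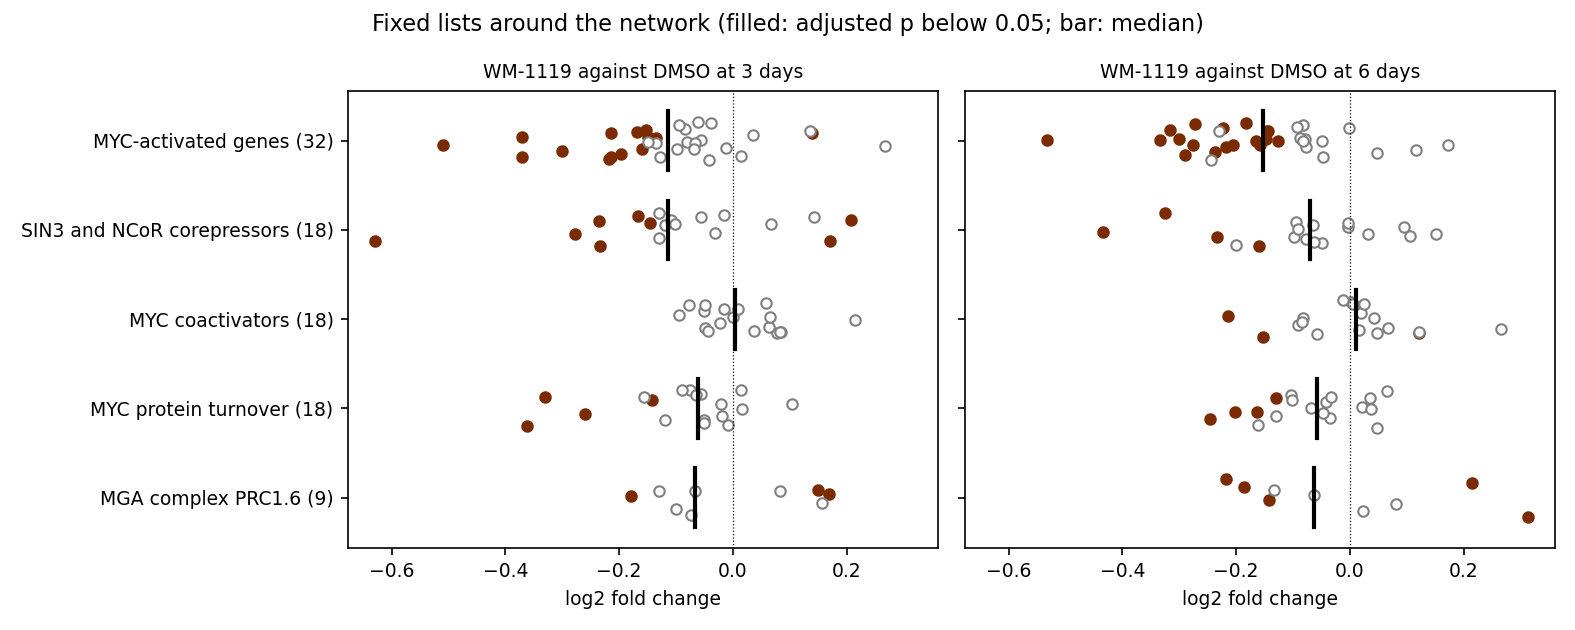
Log2 fold change of WM-1119 against DMSO (x axis) for the genes of each list at 3 and 6 days. Each point is a gene, and bars are list medians. Filled points passed the edgeR test and open points did not. The 32 genes that MYC activates had 13 lower at 3 days and 18 at 6 days.

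The genes whose pattern was most like that of 2 members were found by the root mean square difference of log2 CPM, each gene centred on its own mean, over the 12 libraries, among 9492 tested genes that averaged 5 CPM or more. Closest to Myc were Gpat4, an acyltransferase of lipid synthesis, at 0.0383, Ctnnb1, which encodes β-catenin, at 0.0408, Aplp2 at 0.0433 and Zranb1, a deubiquitinase, at 0.0437, where the median gene stood at 0.190. Closest to Mxd3 were Tbc1d10c at 0.0771, Tep1, a telomerase-associated protein, at 0.0878, Slc37a2, a sugar phosphate transporter, at 0.0885 and Myo7a, an unconventional myosin, at 0.0896, against a median of 0.342. These distances are descriptions over libraries that share 1 line.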

How the data were processed

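Polyadenylated RNA from 12 libraries (TruSeq stranded kit, per the labels' protocols) was analysed from read counts per gene that the authors deposited, with featureCounts and build mm10 named in the submitters' processing notes. For the aligner, the strand setting and multiply mapped reads, nothing is given in the sources used here. Of 27179 rows, 874 without a gene identifier (0.305% to 0.362% of counts) were left out, and 25275 of 26305 identifiers matched a RefSeq symbol (GRCm38.p6).

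Counts were scaled with TMM and filtered with filterByExpr by group, which left 11997 genes. They were fitted with 4 group means and a robust quasi-likelihood (edgeR 4.0.16, R 4.3.3). P-values are two-sided with Benjamini-Hochberg adjustment over all tested genes, threshold 0.05. The biological coefficient of variation was 5.69%. An exact permutation of 3 against 3 cannot go below 0.1. The fit was tested on simulated data. DESeq2 1.42.0, limma 3.58.1, other scalings, filters, a replicate block, thinning to 14691369 counts and leaving out each library were alternatives; those without the Col1a1 libraries, thinned, blocked within a time, and with GENCODE lengths were chosen after seeing the data. The labels name no pairs. Deviations of the DMSO and WM-1119 libraries at 6 days with the same replicate number correlated at 0.195, 0.191 and 0.209. Those with different numbers at 6 days correlated at -0.175 to 0.003. DMSO at 6 days replicate 2 and WM-1119 at 3 days replicate 3 correlated at 0.213. Whether the 6 day libraries were paired was not established, and the main fit held no pairing.

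The members and lists were chosen with earlier results of these data known. All 10 members were named. Lists of 3 or fewer genes were named whole, and up to 4 genes with the smallest p among those called from longer ones. The 4 genes nearest to Myc and Mxd3 were also named. Of 140 genes in 13 other lists, 139 matched.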

Additional observations from a re-analysis of the deposited data

How the results depend on the processing

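Across 23 alternatives for each WM-1119 comparison, Myc and Mxd3 kept their direction and call at both times. The number of members called at 3 days ranged from 2 to 4 on leaving out 1 library (2 without DMSO at 3 days replicate 1), and at 6 days from 4 to 6; it was 2 at 6 days without the 5 libraries with Col1a1 above 1 CPM, which leaves fewer samples. In WM-1119 at 6 against 3 days the count was 1 (Max) with upper-quartile scaling, without a filter and with these groups alone. Calls lost or gained by Mxi1, Mxd4, Mxd1 and Max stand beside their values, and those Mxi1 gained at 6 days were also at adjusted p = 0.043 without a filter, 0.0498 without DMSO at 3 days replicate 3, 0.035 without DMSO at 6 days replicate 3 and 0.028 without WM-1119 at 6 days replicate 1. Mxi1 at 3 days lost its call with upper-quartile scaling (0.077), thinned counts (0.079) and without the Col1a1 libraries (0.096). Values that changed sign passed under no setting. On leaving out 1 library, log2 values at 3 days ran from -0.075 to 0.0076 for Max, -0.018 to 0.17 for Mxd1 (-0.017 without DMSO replicate 3) and -0.0072 to 0.047 for Mlx (-0.0070 without DMSO replicate 2), and at 6 days from -0.048 to 0.0052 for Mnt. Mxd1 at 3 days was -0.035 when thinned, and without the Col1a1 libraries Max at 3 days was 0.0078 and Mnt at 6 days 0.0032. The cause was not tested.

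With the replicate number as a block, 4 members were called at 3 days and 6 at 6 days (with 6 day libraries alone Mxi1 had an adjusted p of 0.021), and the block changed no other call of a member. Over all genes, the calls for time in DMSO were 97, and 171 with DESeq2, 173 without a filter, 167 with the block, 47 with these groups alone, 537 without the Col1a1 libraries, and 41 to 158 on leaving out 1 library; for time in WM-1119 they were 674, and 1117 with these groups alone, 268 without the Col1a1 libraries and 309 to 1100 on leaving out 1 library. At 6 days they were 3693, and 1516 without the Col1a1 libraries. At 3 days the deviations of libraries with the same replicate number gave correlations of -0.02, 0.05 and 0.0004. The planned RefSeq exon lengths were not run; GENCODE lengths were used. Mycn and Mycl were too low to test.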
